A study of Mus musculus with 34 samples.

Results

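The genes described here are 10 mouse genes of dendritic cell identity and of T cell costimulation: Irf4, Irf8, Batf3, Zbtb46, Flt3, Xcr1, Clec9a, Cd209a, Cd80 and Cd86. They were chosen by name among the 20660 named genes of the array, with earlier results of these data known. Each was read through the probe with the highest mean lung signal among the probes whose RefSeq accession belongs to it. Of these 10 genes, 9 were bright enough to test, among 29316 genes and unnamed transcripts tested in all, and Xcr1 was not. The animals were C57BL/6 females aged 5 to 7 weeks. Their lungs were taken for total RNA 28 days after carbon nanotubes in 40 µl had been instilled into the trachea, once. NRCWE-043, NRCWE-044 and NRCWE-045 are the code names of the 3 materials, and each was given at 18 or 54 µg per mouse. There were 5 control lungs, 5 lungs each for NRCWE-043 at 18 and at 54 µg, 6 for NRCWE-044 at 18 µg, 5 for NRCWE-044 at 54 µg, 3 for NRCWE-045 at 18 µg and 5 for NRCWE-045 at 54 µg. The labels do not say what was given to the controls, and the title of control replicate 3 names NRCWE-043 at 0 µg. The labels mention random tissue sections and do not say that each array is a separate mouse, so p-values measure only the spread between these samples, which may be technical.

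Dendritic cells take up antigen in the airway and lung wall, carry it to draining lymph nodes and start T cell responses there. Conventional dendritic cells of the first type depend on the transcription factors IRF8 and BATF3, carry XCR1 and CLEC9A, and are known for presenting material from dead cells to CD8 T cells. Those of the second type depend more on IRF4 and include cells that carry CD209a. ZBTB46 marks the conventional lineage, FLT3 is the receptor for the growth factor that maintains it, and CD80 and CD86 are the surface ligands that give T cells the second signal through CD28. Several of these genes are also used elsewhere: IRF4 and IRF8 also act in B cells, IRF4 in plasma cells, and CD80 and CD86 are found on macrophages and B cells.

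The genes Irf4, Batf3 and Cd80 carry most of what follows. For each, the 250 bases upstream of a listed start are shown so that base composition and motif content can be seen. The sequences are from RefSeq, build GRCm38.p6, plus strand, written 5′ to 3′, and capitals mark a match to one of the motifs searched on both strands. The windows are chr13:30748983-30749232 for Irf4, chr1:191098164-191098413 for Batf3 and chr16:38458683-38458932 for Cd80. Those of Irf4 and Batf3 end next to the annotated gene starts, 30749233 and 191098414. The Cd80 window lies inside the annotated gene, chr16:38457430-38495958, so it is not upstream of the whole gene.
Irf4: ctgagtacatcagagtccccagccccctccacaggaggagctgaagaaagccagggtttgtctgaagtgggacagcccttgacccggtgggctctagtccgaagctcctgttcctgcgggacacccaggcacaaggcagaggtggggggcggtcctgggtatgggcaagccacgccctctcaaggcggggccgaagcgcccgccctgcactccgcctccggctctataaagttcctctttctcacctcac
Batf3: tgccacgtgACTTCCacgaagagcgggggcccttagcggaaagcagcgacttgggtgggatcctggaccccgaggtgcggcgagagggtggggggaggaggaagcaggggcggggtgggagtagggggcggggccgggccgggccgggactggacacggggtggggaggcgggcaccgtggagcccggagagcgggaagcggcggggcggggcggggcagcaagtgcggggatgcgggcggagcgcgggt
Cd80: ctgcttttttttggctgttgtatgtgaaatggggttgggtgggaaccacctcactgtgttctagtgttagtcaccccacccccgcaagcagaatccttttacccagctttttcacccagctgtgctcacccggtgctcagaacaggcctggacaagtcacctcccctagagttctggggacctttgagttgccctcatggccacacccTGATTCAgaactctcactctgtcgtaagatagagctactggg
The letters searched were TGANTCA for AP-1, the family that BATF3 belongs to, and GGAAGT for the ETS family. The Irf4 window held neither, and the Batf3 window held the ETS letters 241 bases before the start. The Cd80 window held the AP-1 letters 42 bases before the start used for it, inside the gene. G and C made up 63.6% of the Irf4 window, 76.0% of the Batf3 window and 52.8% of the Cd80 window. Among 27025 mouse promoter windows of the same length, 6.87% held the AP-1 letters and 20.0% the ETS letters. Of the 10 genes, 9 had an entry in the promoter table, and Cd86 had none. Zbtb46 also held the AP-1 letters, 61 bases before the start used for it. That window, chr2:181424389-181424638, lies inside the annotated gene, chr2:181371009-181493262, so the match is not upstream of the whole gene. Flt3, Xcr1 and Cd209a held the ETS letters.

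Each value below is a log2 ratio of lung RNA (Cy5) to a reference RNA pooled from 11 mouse cell lines (Cy3), so that a value of 0 means equal signal. Lung signal was well above background on all 34 arrays for 9 genes and on 2 of 34 for Xcr1, 1 lung with NRCWE-044 at 54 µg and 1 with NRCWE-045 at 54 µg. Clec9a, the receptor for exposed actin on dead cells, was thus measured in every lung, while Xcr1, the chemokine receptor that defines the same cells, was not. In the reference channel Clec9a was well above background on 0 of 34 arrays, Cd209a on 1 and Zbtb46 on 27, so the ratios of the first 2 rest on a reference signal near background. In control lungs the mean log2 ratio was 2.35 ± 0.11 for Irf8, 2.71 ± 0.27 for Cd209a, 2.13 ± 0.46 for Clec9a, 0.89 ± 0.22 for Cd80 and 0.70 ± 0.42 for Cd86 (SD, n = 5). It was 0.43 ± 0.19 for Zbtb46, 0.35 ± 0.21 for Flt3, -0.36 ± 0.24 for Batf3 and -3.02 ± 0.18 for Irf4, the only gene of the 9 far below the reference. In whole lung RNA, fewer cells of a type and less RNA per cell cannot be told apart.

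The arrays lay on 6 slides that were scanned on different days, and slides held between 3 and 7 of the 7 groups. Between 52.2 and 69.4% of probes per array were well above background in lung RNA, and the number of arrays limits the precision. Over everything tested, the median R2 with slide was 0.346 and with group 0.161. Among the 9 genes R2 with slide ranged from 0.111 for Batf3 to 0.717 for Clec9a, and R2 with group from 0.151 for Clec9a to 0.482 for Cd80. Clec9a thus varied more with the slide than with the group, and Batf3 and Cd80 more with the group.

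**Figure D1:**
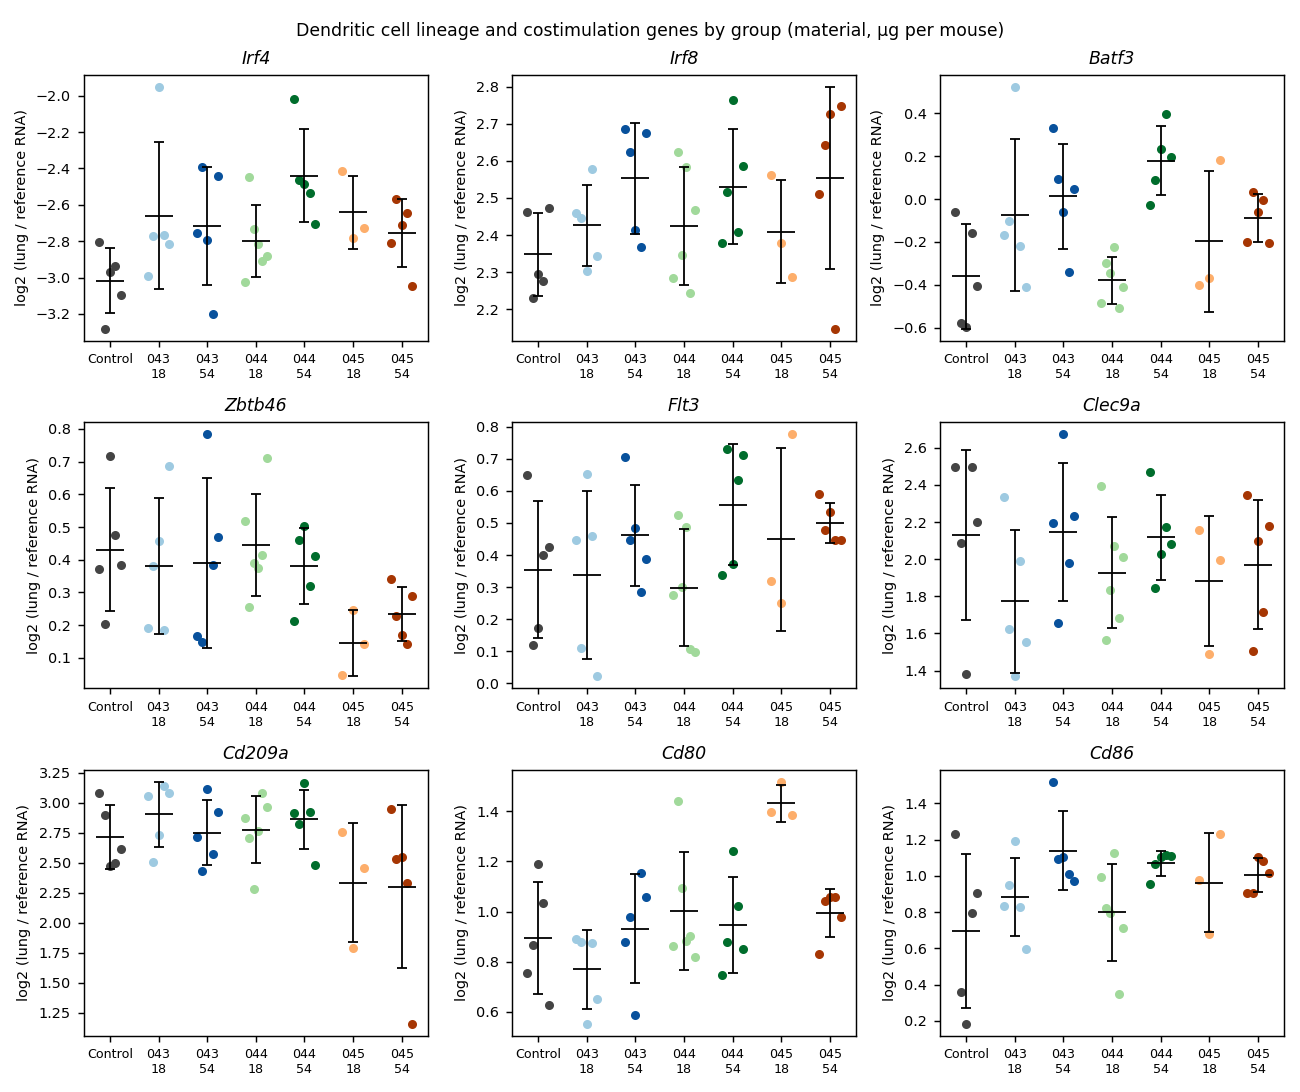
Log2 ratio of lung to reference RNA for the 9 tested genes in each of 34 lungs, by group (control, then material code and dose in µg), with the group mean and 1 SD in black; vertical axes differ between genes. All 5 lungs with NRCWE-044 at 54 µg lie above all controls for Irf4 and Batf3. All 3 lungs with NRCWE-045 at 18 µg lie above all controls for Irf4, narrowly, and for Cd80.

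No gene of the 9 passed the test in any of the 6 comparisons of a material and dose with the controls (0 of 9, limma, adjusted p below 0.05), and neither did anything else on the array (0% of 29316). At an unadjusted p below 0.05, 3 of 9 genes were higher with NRCWE-044 at 54 µg, beside 3.24% of everything tested. The count at that level was 2 of 9 with NRCWE-043 at 54 µg (2.52% of everything tested) and 1 of 9 with NRCWE-045 at 54 µg (2.02%). At 18 µg it was 1 with NRCWE-043 (1.65%), 0 with NRCWE-044 (1.62%) and 1 with NRCWE-045 (5.04%), and 1 gene, Zbtb46, was lower at that level with NRCWE-045 at 18 µg (2.88%). With NRCWE-044 at 54 µg, 7 of 9 genes were above the control mean, with a median log2 difference of 0.18, against 50.1% above it and a median of 0.00 over everything tested. With the means of the 3 materials at 54 µg set against the controls, 4 of 9 genes were higher at an unadjusted p below 0.05, against 2.86% of everything tested. These 4 were Batf3 at 0.39 ± 0.11, Irf4 at 0.38 ± 0.13, Cd86 at 0.38 ± 0.12 and Irf8 at 0.20 ± 0.08 (log2 difference ± SE), and their smallest adjusted p was 0.550. Without control replicate 3, the one with the mixed title, 2 of the 4 remained below an unadjusted p of 0.05, Irf4 at 0.39 and Batf3 at 0.34, while Cd86 stood at 0.25 and Irf8 at 0.19. At 18 µg the corresponding count was 1 of 9, Irf4 at 0.32 ± 0.13, against 1.84% of everything tested. Without control replicate 3 it was 2 higher, Irf4 at 0.33 and Cd80 at 0.25, and 1 lower, Clec9a at -0.46, with a smallest adjusted p of 0.801. Some of the 9 genes varied together, and all were chosen with earlier results of these data known. The counts are therefore no test of the genes as a set.

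**Figure D2:**
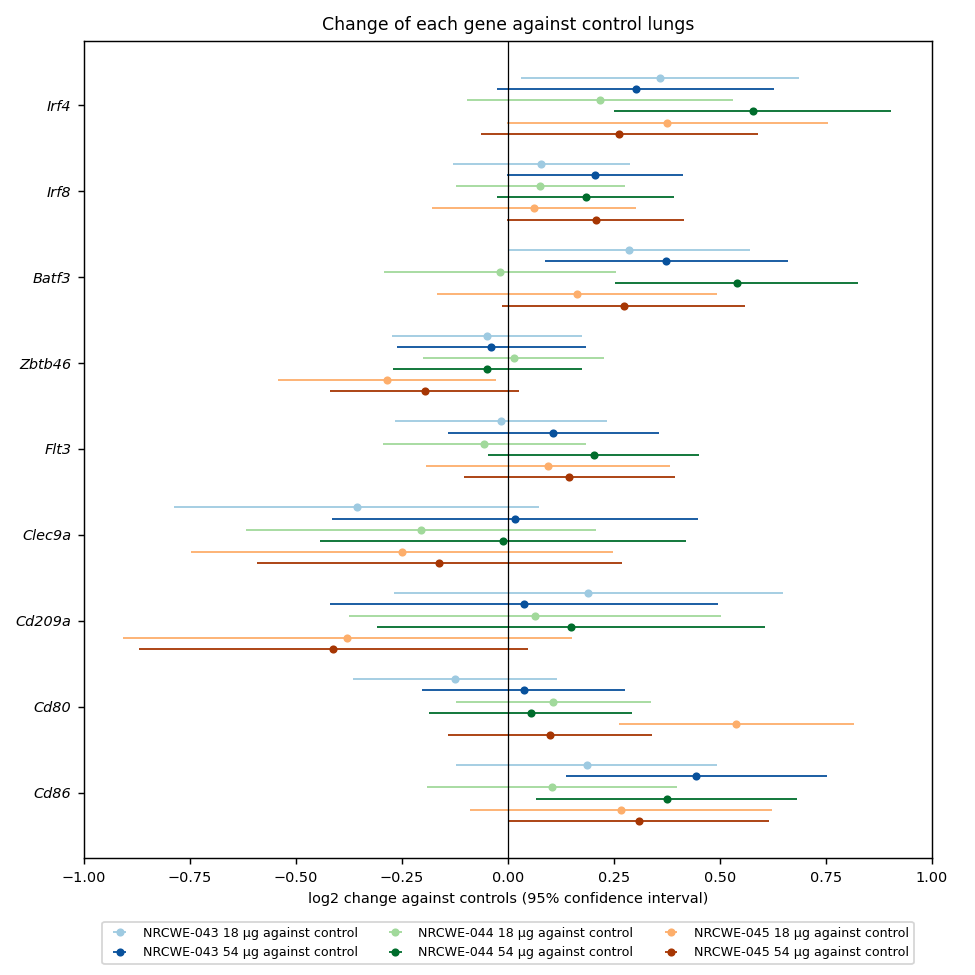
Log2 difference from the control mean for each of the 9 tested genes in the 6 material and dose groups; points are limma estimates and bars their 95% confidence intervals, not adjusted for the number of genes. The intervals for Irf4 and Batf3 with NRCWE-044 at 54 µg run from 0.25 to 0.90 and from 0.25 to 0.82, and that for Cd80 with NRCWE-045 at 18 µg from 0.26 to 0.82.

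Among the transcription factors, Irf4 and Batf3 showed their highest group means in lungs given 54 µg of NRCWE-044. For Irf4 the 5 control lungs read -2.81, -3.28, -2.97, -2.94 and -3.10, and the 5 lungs with NRCWE-044 at 54 µg read -2.02, -2.46, -2.48, -2.54 and -2.71. The groups did not overlap, which held for 0.675% of everything tested in this direction. The difference was 0.58 ± 0.16 on the log2 scale (SE), or 1.49-fold, with an adjusted p of 0.453, so it did not pass the test. On the 4 slides that held both groups the difference was above 0 each time, from 0.39 to 1.03. With 18 µg of the same material the mean was -2.80 ± 0.20 (SD, n = 6), and the difference between its doses was 0.36 ± 0.15 (SE), with an adjusted p of 0.935. In the order of the group means, controls were lowest, followed by NRCWE-044 at 18 µg, NRCWE-045 at 54 µg at -2.76 and NRCWE-043 at 54 µg at -2.72. NRCWE-043 at 18 µg at -2.66, NRCWE-045 at 18 µg at -2.64 and NRCWE-044 at 54 µg at -2.44 came next, and the values of neighbouring groups in this order overlapped throughout. The mean for NRCWE-043 at 18 µg was drawn up by its replicate 3, at -1.95. Without it the difference from controls went from 0.36 to 0.18. With NRCWE-045 at 18 µg, 3 of 3 lungs also lay above all 5 controls, as did 3.18% of everything tested. The lowest of these lungs read -2.78 and the highest control -2.81. Their difference from controls was 0.38 ± 0.19 (SE), with an adjusted p of 0.634 (limma).

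Batf3, the AP-1 family factor needed for first-type dendritic cells, was higher at 54 than at 18 µg of NRCWE-044 without passing the test. The 5 control lungs read -0.06, -0.58, -0.60, -0.16 and -0.40, and the 5 lungs at 54 µg read -0.03, 0.09, 0.24, 0.40 and 0.20. At 18 µg the 6 lungs ran from -0.51 to -0.22, with a mean of -0.38 ± 0.11 (SD), beside -0.36 ± 0.24 in the controls. All 5 lungs at 54 µg were thus above all controls and above all lungs at 18 µg; the latter held for 0.341% of everything tested. The difference was 0.54 ± 0.14 against controls, with an adjusted p of 0.372, and 0.56 ± 0.13 (1.47-fold) against 18 µg, with an adjusted p of 0.574. Within slides, 54 µg was above the controls on 4 of 4 slides, by 0.29 to 0.69, and above 18 µg on 4 of 4 slides, by 0.39 to 0.74. With 54 µg of NRCWE-043 Batf3 stood 0.37 ± 0.14 above controls and with 54 µg of NRCWE-045 0.27 ± 0.14, neither past the test. Across all 7 groups Batf3 gave an F test p of 0.00304 and an adjusted p of 0.251; 13 of 29316 passed that test and none of the 9 genes did. NRCWE-044 and NRCWE-043 at 54 µg were not told apart for Batf3, with a difference of 0.17 and a 95% interval from -0.12 to 0.45.

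**Figure D3:**
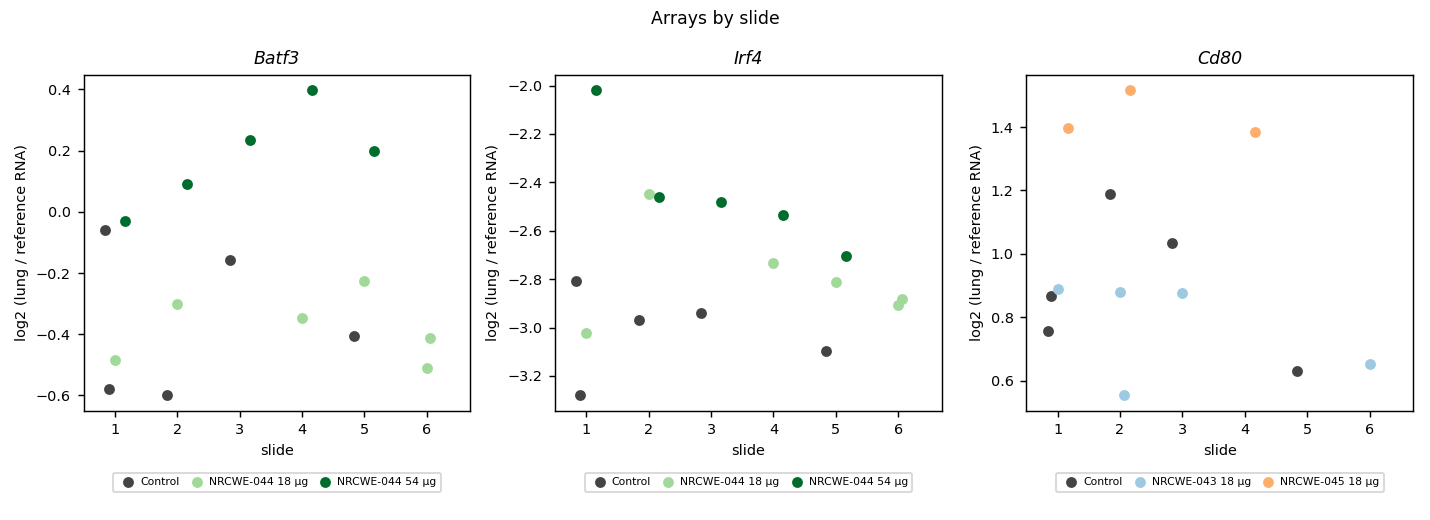
Log2 ratio of Batf3 and Irf4 in controls and both NRCWE-044 doses, and of Cd80 in controls and the NRCWE-043 and NRCWE-045 lungs at 18 µg, by slide; points are lungs, shifted sideways within a slide for clarity. On each slide that holds both, NRCWE-044 at 54 µg lies above the controls for Batf3 and Irf4, and NRCWE-045 at 18 µg above NRCWE-043 at 18 µg for Cd80.

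Irf8, the factor of first-type and plasmacytoid dendritic cells, varied little. Its 34 values ran from 2.15 to 2.76, and the group means at 54 µg stood above controls by 0.21 for NRCWE-043, by 0.18 for NRCWE-044 and by 0.21 for NRCWE-045, with an SE of 0.10 each. The 3 means at 18 µg stood 0.06 to 0.08 above, and no comparison passed the test. Within slides, Irf8 at 54 µg was above the controls on 3 of 3 slides for NRCWE-043. The same held on 4 of 4 slides for NRCWE-044, by 0.03 to 0.49, and on 4 of 4 for NRCWE-045. With slide as a fixed block, the mean of the 3 materials at 54 µg stood 0.25 ± 0.07 above controls (limma, adjusted p 0.211). Zbtb46, a repressor restricted among immune cells to the conventional lineage, had its lowest group means with NRCWE-045 by its brighter probe. The 3 lungs at 18 µg read 0.05, 0.25 and 0.14, the 5 at 54 µg ran from 0.14 to 0.34, and the controls from 0.20 to 0.72. The difference from controls was -0.29 ± 0.13 at 18 µg and -0.20 ± 0.11 at 54 µg, with adjusted p of 0.556 and 1.00. Without control replicate 3 these differences were -0.21 and -0.12. With slide in the fit the difference between NRCWE-045 and NRCWE-044 at 18 µg went from -0.30 to -0.22, and neither passed the test. A second Zbtb46 probe, well above background on 24 arrays, did not place NRCWE-045 lowest. Against controls it gave -0.03 and -0.10 for NRCWE-045 at 18 and 54 µg, and -0.17 for NRCWE-044 at 54 µg.

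Among the receptors, Flt3 stayed within 0.02 to 0.78 over all lungs. Its highest group mean was again with NRCWE-044 at 54 µg, 0.56 ± 0.19 (SD, n = 5) beside 0.35 ± 0.21 in controls, a difference of 0.20 with a 95% interval from -0.05 to 0.45. Against the same material at 18 µg the difference was 0.26 ± 0.12, and 0.17 with slide in the fit. Clec9a ranged from 1.37 to 2.67, and all 3 differences from controls at 54 µg lay between -0.16 and 0.02. At 18 µg they were -0.36 ± 0.21 for NRCWE-043, -0.20 ± 0.20 for NRCWE-044 and -0.25 ± 0.24 for NRCWE-045. Control replicate 3 was the lowest control for Clec9a, at 1.38, and without it the difference for NRCWE-043 at 18 µg was -0.54, with an unadjusted limma p of 0.0119 and an adjusted p of 0.815. With slide in the fit and all controls kept, the same difference was -0.16. The intervals for Clec9a were the widest beside those of Cd209a: with NRCWE-044 at 54 µg it ran from -0.44 to 0.42.

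Cd209a, a C-type lectin of monocyte-derived and second-type dendritic cells, had its lowest group means with NRCWE-045, though no comparison passed the test. The 3 lungs at 18 µg read 2.75, 1.79 and 2.46, and the 5 lungs at 54 µg read 2.95, 2.53, 2.54, 2.33 and 1.16, beside 2.47 to 3.08 in controls. At 54 µg the difference from NRCWE-044 was -0.56 ± 0.22, with an unadjusted limma p of 0.0182 and an adjusted p of 1.00. Replicate 5 of NRCWE-045 at 54 µg, at 1.16, made up much of this: without it the difference was -0.28. At 18 µg the difference from NRCWE-043 was -0.57 ± 0.26, and -0.30 without replicate 2 of NRCWE-045. Over all alternatives this difference ran from -0.78 to -0.08, the latter with the scanner's processed signals, and the difference from NRCWE-044 at 54 µg from -0.88, also with processed signals, to -0.28.

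Cd80, a ligand of CD28 and CTLA4, gave the only call among the 9 genes in the 18 comparisons fitted. Over everything tested, calls were made in 3 of these comparisons: 0.0102% for NRCWE-044 and 0.43% for NRCWE-045 against NRCWE-043 at 18 µg, and 0.00341% for NRCWE-045 against NRCWE-043 at 54 µg. The 3 lungs with NRCWE-045 at 18 µg read 1.40, 1.52 and 1.38, and the 5 lungs with NRCWE-043 at 18 µg read 0.89, 0.88, 0.55, 0.88 and 0.65. The groups did not overlap, as was true of 3.69% of everything tested in this direction. Cd80 was higher with NRCWE-045 by 0.66 ± 0.14 on the log2 scale (SE), or 1.58-fold, with an adjusted p of 0.0272, in a comparison where 122 of everything tested were higher and 4 lower. On the 2 slides that held both groups the difference was 0.51 and 0.80. The adjusted p was 0.0498 with slide as a fixed block, and the call was lost, with the difference still between 0.61 and 0.71, under 8 alternatives. Those were median centring in place of loess (adjusted p 0.143), the scanner's processed signals (0.163), a fit of these groups only (0.396), array weights (0.0610), and leaving out replicate 2 of NRCWE-045 (0.0806) or replicate 2 (0.0611), 3 (0.120) or 5 (0.0696) of NRCWE-043. A second Cd80 probe, well above background on 4 arrays, gave 0.08 ± 0.16 for the same comparison.

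Against the controls, which read 0.76, 0.87, 1.19, 1.03 and 0.63, Cd80 with NRCWE-045 at 18 µg was higher by 0.54 ± 0.14 without passing the test (adjusted p 0.264), and 3 of 3 lungs were above all 5 controls, beside 3.18% of everything tested. With 54 µg of the same material the 5 lungs read 0.83, 1.04, 1.06, 1.06 and 0.98, all below the 3 lungs at 18 µg, a difference of -0.44 ± 0.14 with an adjusted p of 1.00; 1.02% of everything tested lay below in this way. NRCWE-044 at 18 µg ran from 0.82 to 1.44 and NRCWE-045 was 0.43 ± 0.13 above it, with an adjusted p of 0.328. All 3 group means at 54 µg lay within 0.93 to 0.99, and their differences from controls within 0.04 to 0.10.

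Markers of heart, fat and liver moved with the same comparison. All 9 were higher with NRCWE-045 than with NRCWE-043 at 18 µg, beside 52.4% of everything tested, with a median log2 difference of 1.37. Albumin (Alb) passed the test at 2.74 ± 0.58 (SE). None of the others did, and some were imprecise, such as Myh6 at 0.72 ± 1.64 and Cidec at 0.27 ± 0.52. The mean log2 ratio of these 9 markers was 3.49, 4.28 and 1.07 in the 3 lungs with NRCWE-045 at 18 µg and ran from 1.08 to 1.86 in the 5 with NRCWE-043. The lung with 1.07 read 1.38 for Cd80, beside 1.40 and 1.52 in the other two. The highest marker mean of all lungs, 4.82, was in replicate 1 of NRCWE-044 at 54 µg, which read 0.75 for Cd80. Across the 34 arrays the correlation of Cd80 with the marker mean was 0.18 after slide means were subtracted. Also higher in that comparison were Siglech, a receptor of plasmacytoid dendritic cells, at 0.83 ± 0.18 (adjusted p 0.0297) and Csf3r, the neutrophil growth factor receptor, at 0.96 ± 0.20 (adjusted p 0.0272). Their part in the Cd80 result was not tested.

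Cd86, the other CD28 ligand, showed its highest means at 54 µg. The controls read 1.23, 0.36, 0.18, 0.79 and 0.91, the lungs with 54 µg of NRCWE-043 read 1.52, 1.09, 1.10, 1.01 and 0.97, and those with 54 µg of NRCWE-044 read 0.95, 1.06, 1.10, 1.12 and 1.11. With 54 µg of NRCWE-045 the values were 0.91, 0.91, 1.10, 1.08 and 1.02. Controls were the most spread, with an SD of 0.42 against 0.07 for NRCWE-044 and 0.09 for NRCWE-045, and overlapped with all 3 groups. Within slides, Cd86 at 54 µg was above the controls on 3 of 3 slides for NRCWE-043, by 0.31 to 0.91, on 4 of 4 for NRCWE-044, by 0.16 to 0.88, and on 4 of 4 for NRCWE-045, by 0.11 to 0.72. The difference from controls was 0.44 ± 0.15 for NRCWE-043 (adjusted p 0.675), 0.37 ± 0.15 for NRCWE-044 and 0.31 ± 0.15 for NRCWE-045. With slide as a fixed block the NRCWE-043 difference was 0.54 ± 0.14, with an adjusted p of 0.153. Without control replicate 3, the lowest control, the last 2 were 0.25 and 0.18. Replicate 1 of NRCWE-043 at 54 µg, at 1.52, was the highest Cd86 value of all lungs. Cd80 and Cd86 thus did not share a pattern: their correlation across arrays was -0.18 after slide means were subtracted.

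**Figure D4:**
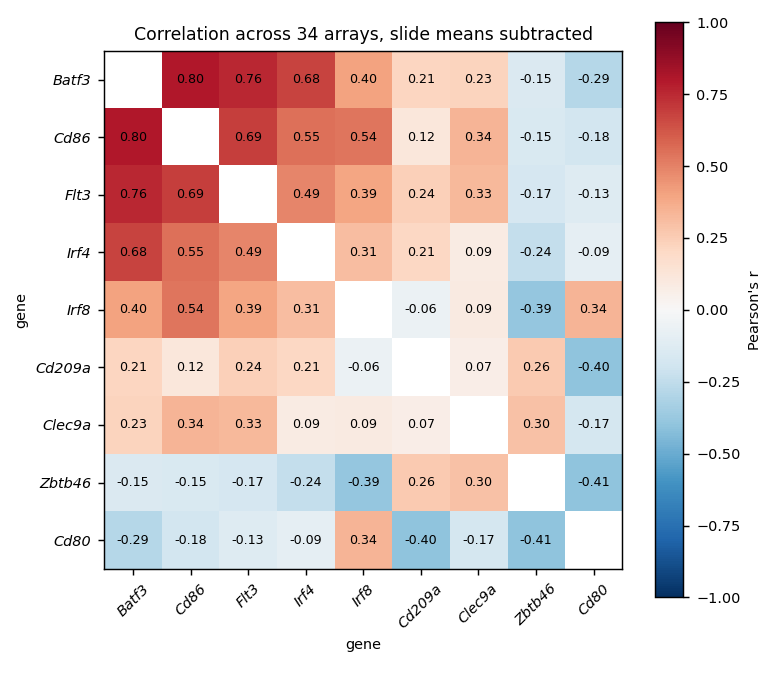
Pearson correlation of the log2 ratios of each pair of the 9 tested genes across 34 arrays, after the mean of each slide was subtracted; red is positive, blue negative, and the diagonal is left blank. Batf3, Cd86, Flt3 and Irf4 form a block with values from 0.49 to 0.80, and Cd80 is negative with 7 of the other 8.

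Across lungs, Batf3, Cd86, Flt3 and Irf4 varied together. Their 6 pairwise correlations across the 34 arrays, with slide means subtracted, ran from 0.49 for Flt3 and Irf4 to 0.80 for Batf3 and Cd86. Over all 36 pairs of the 9 genes the median was 0.21 and 23 were positive, and the lowest was -0.41, between Cd80 and Zbtb46. All arrays share one reference RNA, and no p is given. Cd80 and Irf8 correlated at 0.34, the only positive value for Cd80. Irf8 correlated with Batf3, Cd86, Flt3 and Irf4 at 0.31 to 0.54. With group means also removed, the 6 correlations among Batf3, Cd86, Flt3 and Irf4 ran from 0.40 to 0.81.

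The genes whose values followed each member most closely came from all 17158 named genes tested. Batf3 was nearest to Trem2, a lipid receptor of macrophages, at 0.86, then Rab3il1 at 0.85 and Syngr2 at 0.84. Irf4 was nearest to Mcoln2 at 0.85, Casp1, the inflammasome protease, at 0.82, and Lgals1 at 0.80. Cd86 was nearest to Wdfy4, needed for cross-presentation by first-type dendritic cells, at 0.85, then Cd48 at 0.84 and Nckap1l at 0.83, and Flt3 to Ctss at 0.78, Wdfy4 at 0.78 and Ms4a6d at 0.77. Irf8 was nearest to Mgl2, a lectin of second-type dendritic cells, at 0.82, then Cd72 and Vav1, both at 0.79. Cd80 was nearest to Dpysl5 at 0.86, Sgsh and Ogfod1, both at 0.82. The nearest values were lower for Clec9a (Frem1 0.72, Frmd3 0.67, Yipf6 0.66), Zbtb46 (Clstn1 0.70, Nat14 0.65, Zfp518b 0.64) and Cd209a (Xkr5 0.66, Dubr 0.66, Dhrs13 0.65).

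The wider dendritic cell lists gave 0 calls in the 8 comparisons with controls (limma, adjusted p below 0.05). In first-type genes at 54 µg of NRCWE-044, 7 of 12 tested were above 0 with a median of 0.05. Itgax, which encodes CD11c and is not confined to first-type cells, was at 0.49 ± 0.15 (adjusted p 0.564). Wdfy4 was at 0.44 ± 0.13 (adjusted p 0.576). First-type genes did not all move up: for the means of the 3 materials at 54 µg, Cadm1 was at -0.34 ± 0.11 and Wdfy4 at 0.40 ± 0.11. In second-type and monocyte-derived genes with NRCWE-044 at 54 µg, 9 of 12 were above 0 with a median of 0.25. Sirpa was at 0.39 ± 0.13 and Klf4, a factor of that subset, at -0.52 ± 0.21. In genes of mature, migrating cells 10 of 15 were above 0 with a median of 0.11; Il4i1, an amino acid oxidase, was at 0.72 ± 0.23 and Ccr7, the receptor that guides migration to lymph nodes, at 0.64 ± 0.25. In plasmacytoid genes 7 of 12 were above 0, with Tlr7 at 0.39 ± 0.16 and Ly6d at 0.65 ± 0.27. Growth and transcription factor genes had 12 of 20 above 0, with Cbfa2t3 at -0.36 ± 0.15 and Ikzf1 at 0.30 ± 0.13. Costimulatory ligands and receptors had 9 of 13, with Cd28, the T cell partner of CD80 and CD86, at 0.35 ± 0.13 and Tnfrsf4 at 0.36 ± 0.15. At unadjusted p below 0.05 these 6 lists held 2 to 3 higher genes each, and between 0 and 1 lower, beside 3.24% higher and 2.6% lower of everything tested; 50.1% of everything tested was above 0.

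Most markers of other immune cells stood above 0 in the same lungs, beside 50.1% of everything tested. With 54 µg of NRCWE-044, 9 of 10 B cell markers were above 0 with a median of 0.39, 6 of 8 plasma cell markers with a median of 0.28, 11 of 11 T cell markers with 0.19 and 8 of 11 monocyte and macrophage markers with 0.23. Endothelial markers were below 0 in 12 of 12, with a median of -0.24. The mean log2 ratio of the plasma cell markers was -0.88 in controls and -0.47 with 54 µg of NRCWE-044, and its correlation across arrays, with slide means subtracted, was 0.72 with Irf4 and 0.51 with Batf3. The mean of the monocyte and macrophage markers was 1.93 in controls and 2.13 in that group, and correlated at 0.67 with Cd86, 0.62 with Batf3 and 0.61 with Flt3. The endothelial mean correlated at -0.56 with Irf4, at -0.54 with Batf3 and at 0.32 with Zbtb46, the highest marker correlation of Zbtb46. Irf8 correlated to a like degree with several marker means. The values were 0.62 for B cells, 0.61 for T cells, 0.56 for NK cells and 0.49 for monocytes and macrophages. The part of these cell types in the Irf4, Batf3, Cd86, Irf8 and Zbtb46 values was not tested.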

How the data were processed

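Lung RNA in Cy5 and reference RNA in Cy3 were hybridised to 34 two-colour Agilent arrays with no dye swap. The authors extracted the spots with Agilent Feature Extraction 11.0.1.1, and the array design is of build mm9, per the file headers. For every spot the deposited files hold median intensity and local background in both channels, processed intensities, and flags (other units) for saturation, irregular shape and signal over background. Log2 ratios are in the deposited series table, and how the authors made it is not given in the sources used here; its array medians ran from -0.04 to -0.00, and it correlated at 0.935 to 0.989 with ratios of the deposited intensities.

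Background was subtracted with normexp (offset 50), loess was run within arrays, and repeated probes were averaged, in R 4.3.3 with limma 3.58.1 and statmod 1.5.0. Medians replaced the mean spot signals of the plan, because the deposited columns are medians. Of 55681 probes, 27235 were named through RefSeq accessions. A gene was tested if 3 or more arrays had it well above background in Cy5; lmFit and eBayes fitted 7 group means and 18 comparisons. Benjamini-Hochberg adjustment ran over all 29316 tested, at 0.05. The test was also tried on simulated data, drawn from the means and spreads of these arrays without a slide effect. The text names all 10 members, of each wider list the genes called or else the 2 with the lowest p in the comparison described, and the 3 nearest patterns by correlation. Members and lists were chosen with earlier results of these data known. Alternatives were background, normalization, filter, slide, array weights and leaving out each array.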

Additional observations from a re-analysis of the deposited data

Results flagged for a closer look

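Among 54 sets of values (1 gene in 1 group of 4 to 10 lungs), 2 held a lung far from the others by Dixon's criterion, and chance gives about 1 in 20. For Irf4, replicate 3 of NRCWE-043 at 18 µg was highest at -1.95, with the nearest lung at -2.77. The same lung was the highest of its group for Batf3, at 0.53, and for Cd86, at 1.19, and without it Batf3 in that group stood 0.13 above controls in place of 0.29. For Cd86, replicate 1 of NRCWE-043 at 54 µg was highest at 1.52, with the nearest lung at 1.10; without it the difference from controls was 0.35 in place of 0.44.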

How the results depend on the processing

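Of 3708 values of the 9 genes under alternatives, over 162 gene and comparison pairs, 211 changed sign, in 66 pairs, none of them called or with an unadjusted p below 0.05 in the reported fit. The Cd80 call was lost under 8 alternatives, given above with their adjusted p, which ran from 0.0105 to 0.396 over all of its alternatives; the cause was not tested. The difference of Irf4 between NRCWE-044 at 54 µg and controls ran from 0.47 to 0.70, that of Batf3 from 0.48 to 0.61, and Batf3 between its doses from 0.43 to 0.62, and no alternative took them past the test. Among the 9 genes, members called with NRCWE-045 against NRCWE-043 at 18 µg were 0 under median centring, processed signals, a fit of the groups compared only and array weights, and 0 to 1 when each array was left out. No paired analysis was possible because replicate numbers follow accession order and pair no lungs; slide, which held several groups, served as the block instead.

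Counts over everything tested moved as follows, and the cause was not tested. With slide as a fixed block they were 1 for NRCWE-044 at 54 µg and 1 for NRCWE-045 at 54 µg against controls, 0 for NRCWE-044 and 21 for NRCWE-045 against NRCWE-043 at 18 µg, and 1 for NRCWE-044 against NRCWE-043 at 54 µg. With slide as a random block (correlation 0.294) they were 8 for NRCWE-044 at 54 µg and 4 for the mean at 54 µg against controls, 11 and 397 against NRCWE-043 at 18 µg, 22 and 4 against it at 54 µg, and 6 for NRCWE-045 against NRCWE-044 at 54 µg. For NRCWE-045 against NRCWE-043 at 18 µg the count was 206 without background subtraction, 12 with median centring, 3 with processed signals, 193 with the stricter filter, and 0 with only the groups compared or with array weights. For NRCWE-044 against NRCWE-043 at 18 µg it was 0 with median centring, 1 with the series table, 1 with processed signals and 6 with array weights. For NRCWE-045 at 54 µg it was 0 against NRCWE-043 and 1 against NRCWE-044 with processed signals, 0 against NRCWE-043 with only the groups compared, and 7 and 5 with array weights. The fit of only the groups compared gave 5 for NRCWE-044 at 18 µg and 1 at 54 µg against controls. Array weights gave 1 for NRCWE-043 at 54 µg, 31 for NRCWE-044 at 54 µg and 3 for the mean at 54 µg against controls, 1 between the doses of NRCWE-044 and 2 for NRCWE-044 against NRCWE-043 at 54 µg. Leaving out each array gave 0 to 3 for NRCWE-043 at 54 µg, 0 to 13 for NRCWE-044 at 54 µg, 0 to 110 for NRCWE-045 at 18 µg and 0 to 6 for the mean at 54 µg against controls. It gave 0 to 3 between the doses of NRCWE-044 and 0 to 21 between those of NRCWE-045. Between materials it gave 0 to 34 for NRCWE-044 and 0 to 428 for NRCWE-045 against NRCWE-043 at 18 µg, 0 to 133 for NRCWE-045 against NRCWE-044 at 18 µg, and 0 to 3 for NRCWE-045 against NRCWE-043 at 54 µg. The signal near background limits Xcr1, and in the reference channel Clec9a and Cd209a.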
